A study of Mus musculus with 4 samples.

Results

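The genes described here encode the subunits of the proteasome and the proteins that assemble, activate or inhibit it, measured in sorted mouse thymocytes. They were taken from the deposited expression table as the protein-coding genes whose symbol begins with Psm, then a letter from a to g and a digit, with the immunoproteasome genes Psmb8 and Psmb9 left out. This gave 48 of the 53715 genes in the table, of which 21981 were protein-coding. The 48 lie on 16 chromosomes. One gene that the symbol rule matched, Psmc3ip, encodes a meiotic recombination cofactor and not a proteasome protein, and it is kept in the counts and described separately.

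The proteasome is the protease that degrades most ubiquitin-tagged proteins of the cell. Its 20S core is a barrel of stacked rings: the outer alpha rings gate the entrance, and the inner beta rings carry the catalytic sites. The 19S cap binds ubiquitin chains, removes them, and unfolds the substrate with a ring of ATPases, while other activators open the core without ATP. In the thymus the core also supplies the peptides displayed by MHC class I, and cortical epithelial cells use a core of their own that contains Psmb11.

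The cells were CD4+CD8+ double-positive thymocytes, the stage at which the T cell receptor is first tested, sorted from the thymus of C57BL/6 mice aged 6 to 8 weeks. The WT group had 2 libraries from wild type mice. The KO group had 2 libraries from mice of genotype LCKCre/+ Srsf1 fl/fl, in which a Cre recombinase named for Lck, a T lineage kinase, acts on floxed alleles of the splicing factor gene Srsf1. The WT label names neither Cre nor a floxed allele, so an effect of Cre itself and that of Srsf1 loss cannot be told apart. The labels do not say how many mice went into a library, and a p-value here reflects only how these libraries varied, which may be technical.

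The libraries held 35862730 to 37033180 gene counts, and mitochondrially encoded genes took 1.25% to 1.37% of them. Counts of Srsf1 were 4821 and 4485 in WT and 1839 and 1772 in KO, which gave a log2 fold change of -1.39 (adjusted p = 2.91e-06, SE 0.09). Of 16588 genes tested with edgeR's quasi-likelihood test, 14.5% were called at a Benjamini-Hochberg adjusted p under 0.05. The markers of double-positive thymocytes summed to 8155 and 7841 CPM, counts scaled to the library's total, in WT and to 11568 and 11187 in KO. B cell markers summed to 238 and 231 CPM in WT and to 363 and 357 in KO, almost all of it from Ighm. Over all 9 cortical epithelial markers the sum was 36.5 and 39.9 CPM in WT and 29.3 and 28.6 in KO, with Foxn1 at 0 in every library. Ly75 was the largest part, at 17.7 and 19.7 CPM in WT and 13.6 and 14.5 in KO. Ccl25 went from 6.72 and 6.63 CPM to 2.48 and 3.79, and Krt8 from 0.72 and 0.52 to 0.11 and 0.19. The groups overlapped for Epcam, Psmb11, Prss16, Tbata and Cxcl12. Natural killer and innate-like markers summed to 16.1 and 12.6 CPM in WT and to 21.7 and 24.0 in KO, with Ncr1 at 0. Most of each sum came from Gzma, at 15.4 and 11.6 CPM in WT and 20.5 and 21.7 in KO. Klrk1 went the other way, from 0.56 and 0.33 CPM in WT to 0 in KO. Myeloid markers summed to 13.5 to 25.2 CPM and red cell markers to 0.54 to 5.26. The part of these shifts in the results below was not tested, and in bulk RNA a change in the makeup of the cells and a change in RNA per cell cannot be told apart.

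Proteasome genes as a group were shifted upward in the KO libraries by a small amount. Of the 47 tested, 9 were called higher (19.1%) and 1 was called lower (2.13%), beside 6.63% and 7.89% of all tested genes. Most members were well expressed, with 42 at a mean of at least 10 CPM, and among the 8427 genes at that level the shares were 11.9% and 13.3%. The other 37 tested members were not called. The log2 fold change was above 0 for 40 of the 47 (85.1%), beside 50.2% of all tested genes and 53.5% of those at 10 CPM or more. Both KO libraries lay above both WT libraries for 31 members (66.0%), beside 27.8% of all genes and 35.6% of the well-expressed ones. The opposite held for 1 member (2.13%), beside 28.1% of all genes. The median log2 fold change was 0.21 over the members and 0.00 over all tested genes, with 0.03 at 10 CPM or more. Summed over all 48 genes, the level was 3455 and 3423 CPM in the WT libraries and 4027 and 3818 CPM in the KO libraries, a ratio of means of 1.14. Members share a pathway and are not independent replicates, so these shares are a description of 4 libraries.

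The size of the shift was not the same in the KO libraries. KO replicate 1 exceeded KO replicate 2 for 32 of the 47 tested members (68.1%, beside 51.8% of all genes), with a median log2 difference of 0.07 (0.01 over all genes). With 1 library left out, the number of members called higher varied with the library, and so did the number of calls over all tested genes. The median log2 fold change of the members stayed between 0.19 and 0.24 in those fits. Limma on log2(RPKM + 0.5), an alternative with no filter on low values, called 0 of all 25133 genes after adjustment, and so 0 members. At an unadjusted p under 0.05 it gave 18 members higher and 1 lower, beside 4063 of all genes.

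**Figure D1:**
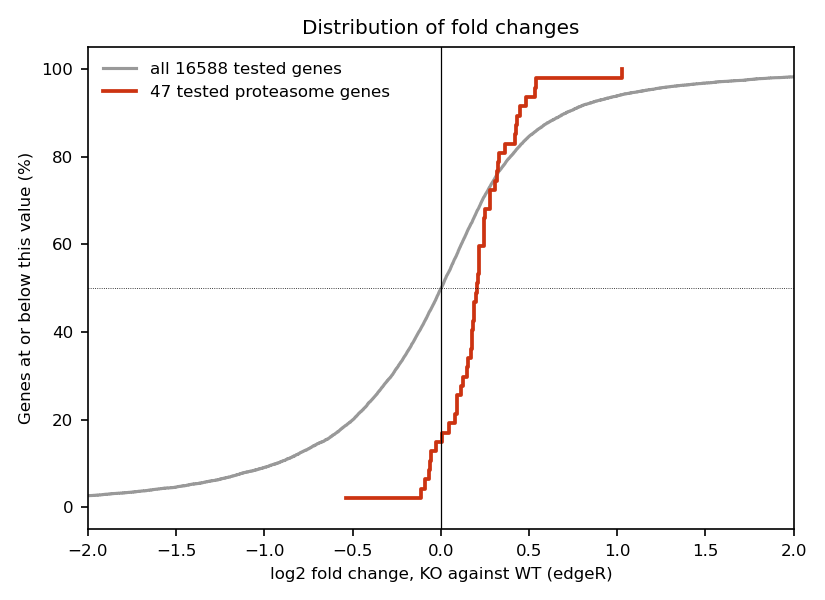
Cumulative share of genes (vertical axis, percent) at or below each log2 fold change of KO against WT (horizontal axis), for all 16588 tested genes (grey) and the 47 tested proteasome genes (red). The red curve crosses the 50% line at 0.21 and the grey one at 0.00.

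**Figure D2:**
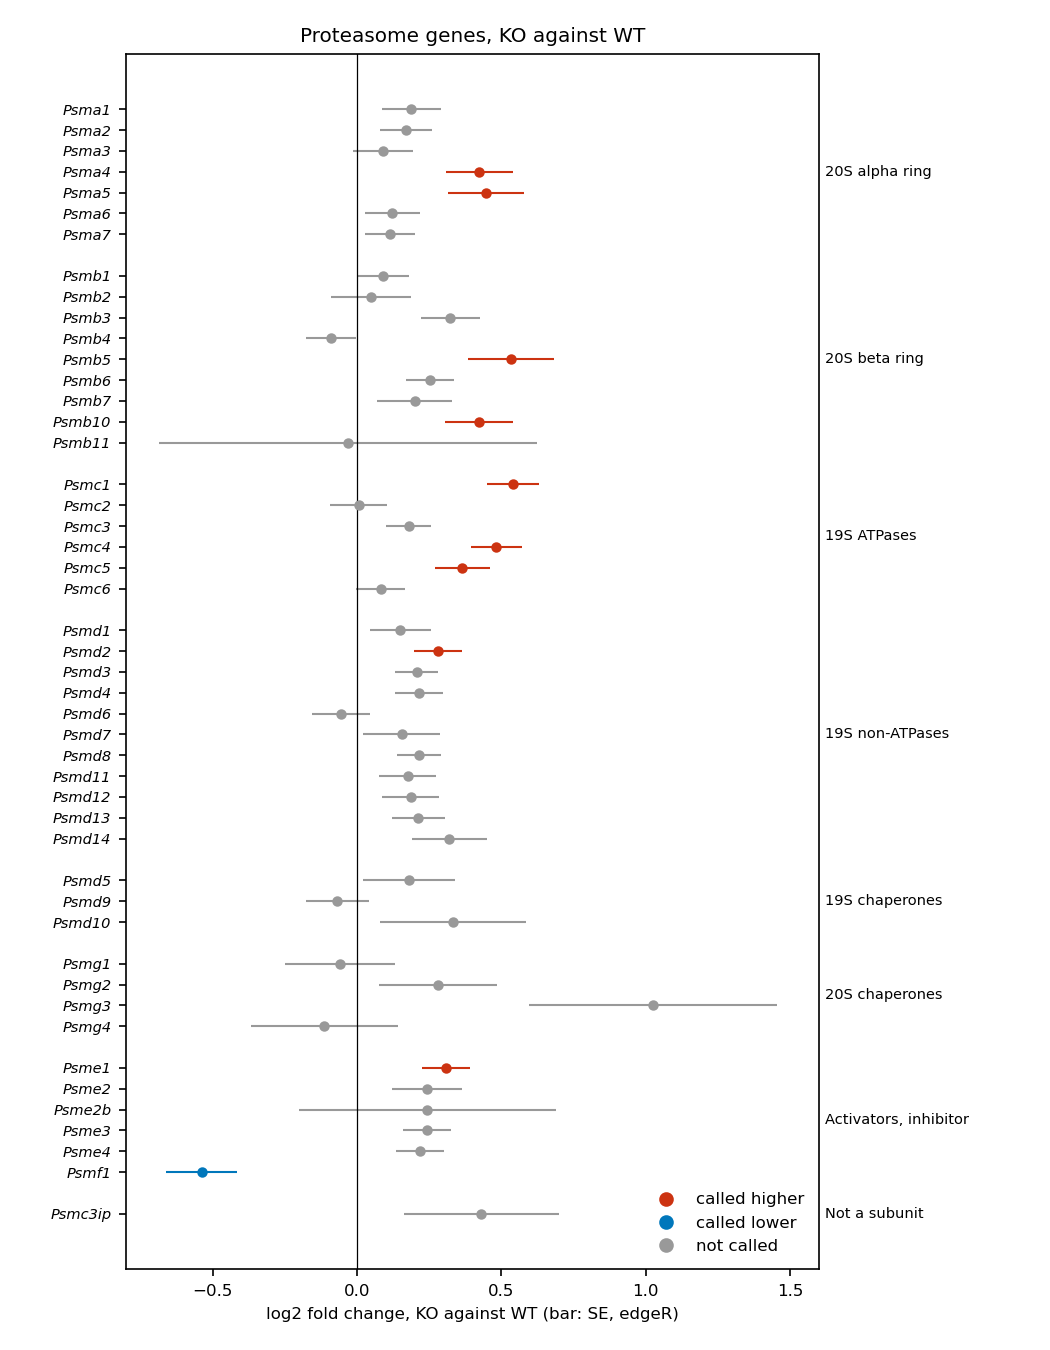
Log2 fold change of KO against WT (horizontal axis) for each tested proteasome gene, grouped by its place in the complex, with points for the edgeR estimate and bars for its SE. Red marks the 9 genes called higher, blue the 1 called lower (Psmf1), grey the 37 not called.

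The ATPases of the 19S cap, the motor ring that unfolds substrates and threads them into the core, held 3 of the 9 genes called higher: Psmc1, Psmc4 and Psmc5. All 6 ATPase genes had a log2 fold change above 0 (median 0.27), beside 53.5% of genes at 10 CPM or more, with Psmc2 at only 0.01. Their summed level went from 578 and 581 CPM in WT to 723 and 671 CPM in KO. In the fits that left out 1 library, the log2 fold change ranged from 0.48 to 0.61 for Psmc1 and from 0.43 to 0.55 for Psmc4. Psmc1 (chromosome 12, 100110154 to 100123405, plus strand, GRCm38) encodes an ATPase whose tail helps to open the gate of the core. It was at 77.96 and 79.14 CPM in WT and at 120.3 and 108.2 CPM in KO, a log2 fold change of 0.54 (adjusted p = 0.00177, SE 0.09). Psmc4 (chromosome 7, 28041707 to 28050101, minus strand) was at 86.61 and 90.21 CPM in WT and at 129.6 and 117.3 CPM in KO, a log2 fold change of 0.48 (adjusted p = 0.00287, SE 0.09). For both genes the lowest KO library lay well above the highest WT library, and KO replicate 1 was the higher KO library.

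Psmc5 (chromosome 11, 106256154 to 106263120, plus strand), another ATPase of the ring, was at 74.06 and 68.03 CPM in WT and at 93.54 and 89.26 CPM in KO. The groups did not overlap, and the log2 fold change was 0.36 (adjusted p = 0.0229, SE 0.10), with adjusted p = 0.137 when WT replicate 2 was left out. Psmc3, the highest ATPase per length, had a log2 fold change of 0.18 (adjusted p = 0.150, SE 0.08). Psmc2, the lowest, was at 78.55 and 84.51 CPM in WT and at 87.27 and 76.34 CPM in KO, so that its groups overlapped fully (log2 fold change 0.01, adjusted p = 0.982, SE 0.10). The remaining ATPase, Psmc6, had a log2 fold change of 0.08 (adjusted p = 0.619, SE 0.09). Whether the ATPase genes differed from one another in their response was not tested. Psmc4 and Psmc5 share no stretch of 50 bases with any other annotated transcript and overlap no other gene's exons, whereas 17.6% of such stretches in Psmc1 also occur in the transcripts of Gm9575 or AC110212.1.

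The upstream sequence of Psmc1, the gene with the largest rise among those called, is shown with those of Psmb5, Psmd2 and Psmf1, which stand for the core, the rest of the cap and the gene that fell. Each run gives the 250 bases before the RefSeq start of the gene on GRCm38.p6, 5′ to 3′ on the gene's strand, with capitals for every match to 3 motifs searched on both strands. These were TGACNNNGC, the core of the antioxidant response element bound by Nfe2l1 and Nfe2l2; CCAAT, the element bound by the NF-Y complex; and CCGGAAG, a core of the sites bound by ETS factors. The windows lie at chr12:100109952-100110201 on the plus strand for Psmc1, at chr14:54617996-54618245 on the minus strand for Psmb5, at chr16:20651402-20651651 on the plus strand for Psmd2 and at chr2:151741311-151741560 on the minus strand for Psmf1.
Psmc1: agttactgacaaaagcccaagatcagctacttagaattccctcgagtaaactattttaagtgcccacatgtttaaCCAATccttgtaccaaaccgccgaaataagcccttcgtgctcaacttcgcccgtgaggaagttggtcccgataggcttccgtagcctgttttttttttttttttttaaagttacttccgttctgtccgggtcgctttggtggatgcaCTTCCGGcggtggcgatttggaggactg
Psmb5: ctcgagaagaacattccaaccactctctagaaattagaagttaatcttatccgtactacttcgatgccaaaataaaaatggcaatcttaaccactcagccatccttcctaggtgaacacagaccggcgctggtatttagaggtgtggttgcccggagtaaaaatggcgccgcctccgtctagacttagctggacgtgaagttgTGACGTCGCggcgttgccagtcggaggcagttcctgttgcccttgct
Psmd2: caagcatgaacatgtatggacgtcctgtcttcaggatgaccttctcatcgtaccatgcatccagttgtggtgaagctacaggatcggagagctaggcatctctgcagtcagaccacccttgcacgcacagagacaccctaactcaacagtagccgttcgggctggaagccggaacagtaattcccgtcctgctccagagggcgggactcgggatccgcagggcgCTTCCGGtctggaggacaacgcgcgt
Psmf1: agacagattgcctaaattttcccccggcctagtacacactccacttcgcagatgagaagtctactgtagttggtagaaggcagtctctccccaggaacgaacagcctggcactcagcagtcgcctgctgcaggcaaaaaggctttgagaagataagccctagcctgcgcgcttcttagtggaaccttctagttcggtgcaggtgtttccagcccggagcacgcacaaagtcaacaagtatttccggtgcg
The Psmc1 window holds a CCAAT match and a CCGGAAG match, the latter written as its reverse complement. In Psmb5 the capitals mark a TGACNNNGC match, and in Psmd2 a CCGGAAG match on the opposite strand. The Psmf1 window has no match, and its RefSeq start lies 2876 bases from the start of the gene in the GENCODE annotation.

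A RefSeq window was found for 40 of the 48 members. For members the window nearest the GENCODE start was used. For the comparison the first listed window of each gene was used, expressed or not. CCGGAAG occurred in 12 of the 40 member windows (30.0%, Psmc3ip included), beside 7.05% of the windows of 27025 genes. TGACNNNGC occurred in 5 (12.5%, beside 10.1%) and CCAAT in 14 (35%, beside 34.5%). Some windows lie far from the GENCODE start of the gene. The distance is 58777 bases for Psmd9, which has a TGACNNNGC match, and 3877 for Psmb11, which has a CCAAT match. It is 4006 bases for Psmd5, which has no match. Among the 9 members called higher, CCGGAAG occurred in 2 windows and each of the other motifs in 1. A match describes letters in a window and not a bound site.

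The non-ATPase subunits of the cap form its scaffold, its ubiquitin receptors and its deubiquitinase. Of these 11 genes 1 was called higher, Psmd2 (9.09%, beside 11.9% of genes at 10 CPM or more). Their log2 fold changes were above 0 for 10 of the 11, with a median of 0.21, and both KO libraries lay above both WT libraries for 9 (81.8%, beside 35.6% of genes at 10 CPM or more). The summed level was 1133 and 1142 CPM in WT and 1333 and 1276 CPM in KO. Psmd2 (chromosome 16, 20651652 to 20663414, plus strand), a large scaffold subunit that docks shuttle factors, was at 148.5 and 168.7 CPM in WT and at 195.1 and 189.9 CPM in KO. Its groups did not overlap, although the WT libraries lay further apart than the KO libraries, and the log2 fold change was 0.28 (adjusted p = 0.0406, SE 0.08). It was 0.20 (adjusted p = 0.344) if WT replicate 1 was left out, and leaving out KO replicate 1 gave an adjusted p of 0.0507. The pseudogene Gm5422 accounts for most of the 26.4% of 50-base stretches that Psmd2 shares with other transcripts.

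Among the 10 uncalled genes of this group, 4 are named after their values were seen because of their roles or their nearness to the threshold. Psmd3 and Psmd8, both structural subunits of the lid, had log2 fold changes of 0.21 each (SE 0.07 and 0.08), with adjusted p = 0.0858 and adjusted p = 0.0851. Psmd14, the deubiquitinase that strips ubiquitin from the substrate, was at 43.00 and 46.94 CPM in WT and at 62.51 and 49.68 CPM in KO, with KO replicate 1 well above the rest. Its log2 fold change was 0.32 (adjusted p = 0.129, SE 0.13), and it ranged from 0.16 (adjusted p = 0.585) without KO replicate 1 to 0.47 (adjusted p = 0.0140) without KO replicate 2. Psmd4, a ubiquitin receptor, had a log2 fold change of 0.22 (adjusted p = 0.107, SE 0.08). The lowest of the 11 was Psmd6 at -0.06 (adjusted p = 0.803, SE 0.10).

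The alpha ring of the core had 2 calls among 7 tested genes, Psma4 and Psma5, both higher. That was 28.6%, beside 11.9% called higher of genes at 10 CPM or more. All 7 had a log2 fold change above 0 (median 0.17, range 0.09 to 0.45), and the ring's summed level, Psma8 included, was 552 and 548 CPM in WT and 648 and 601 CPM in KO. Psma4 (chromosome 9, 54950790 to 54958030, plus strand) was at 49.30 and 54.85 CPM in WT and at 76.53 and 63.07 CPM in KO, a log2 fold change of 0.42 (adjusted p = 0.0291, SE 0.12). Psma5 (chromosome 3, 108256926 to 108279974, plus strand) was at 33.93 and 34.83 CPM in WT and at 44.10 and 49.44 CPM in KO, a log2 fold change of 0.45 (adjusted p = 0.0390, SE 0.13). Both encode structural subunits of the outer ring, and in both the groups did not overlap, but KO replicate 1 was the higher KO library for Psma4 and KO replicate 2 for Psma5.

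Psma4 was no longer called when WT replicate 1 (adjusted p = 0.119) or KO replicate 1 (adjusted p = 0.170) was left out. Leaving out WT replicate 1, WT replicate 2 or KO replicate 2 gave adjusted p = 0.119, 0.0739 and 0.168 for Psma5, and a correction for gene length gave 0.0617. The Psma5 transcript shares 54.5% of its 50-base stretches with other transcripts, mainly those of Gm8394 and Gm12989, and the share for Psma4 was 25.6% (Gm6542).

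The beta ring, which carries the proteolytic sites, had 2 calls among 9 tested genes, the catalytic subunits Psmb5 and Psmb10, both higher. That was 22.2%, beside 11.9% called higher of genes at 10 CPM or more. The log2 fold change was above 0 for 7 of the 9 (median 0.20), and the summed level was 574 and 544 CPM in WT and 641 and 598 CPM in KO. Psmb5 (chromosome 14, 54614119 to 54618022, minus strand), the chymotrypsin-like subunit of the constitutive core, was at 25.35 and 24.21 CPM in WT and at 34.02 and 37.59 CPM in KO. The KO libraries lay clear of the WT libraries, and the log2 fold change was 0.53 (adjusted p = 0.0306, SE 0.15). Leaving out WT replicate 1 gave an adjusted p of 0.0559, leaving out WT replicate 2 gave 0.0885, and leaving out KO replicate 2 gave 0.122. The pseudogene Gm3375 holds most of the 57.1% of 50-base stretches that Psmb5 shares, and the microRNA gene Mir686 lies within its exons.

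Psmb10 (chromosome 8, 105935735 to 105938444, minus strand), the interferon-inducible partner that replaces the trypsin-like subunit Psmb7 in immunoproteasomes, was at 43.11 and 39.68 CPM in WT and at 56.65 and 54.14 CPM in KO. The groups did not overlap, and the log2 fold change was 0.42 (adjusted p = 0.0304, SE 0.12), with adjusted p = 0.150 without WT replicate 2 and 0.0749 without KO replicate 1. Psmb7 itself was at 45.65 and 39.46 CPM in WT and at 51.41 and 46.22 CPM in KO. The KO libraries were the higher ones, though the higher WT library and the lower KO library nearly met (log2 fold change 0.20, adjusted p = 0.362, SE 0.13). Psmb6, the caspase-like subunit, was at 98.46 and 98.67 CPM in WT and at 121.7 and 112.9 CPM in KO. Its groups did not overlap, but it was not called (log2 fold change 0.25, adjusted p = 0.0642, SE 0.08), except without KO replicate 2 (adjusted p = 0.0343).

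Ratios of RPKM, the deposited level scaled to gene length and library size, set each inducible catalytic subunit against the constitutive one it replaces. Psmb10 over Psmb7 was 1.89 and 2.02 in WT and 2.21 and 2.35 in KO, with no overlap between the groups. The size of this ratio rests on the deposited lengths, which are 2.95 times the main transcript for Psmb7 and 1.30 times for Psmb10. Mean CPM per kilobase of main transcript was 31.6 for Psmb10 and 36.7 for Psmb7 in WT, and 42.3 and 42.1 in KO. Psmb10 is therefore not shown to lie above Psmb7. The ratio of Psmb8 to Psmb5 (1.28 and 1.18 in WT, 1.32 and 1.18 in KO) and that of Psmb9 to Psmb6 (0.0982 and 0.142 in WT, 0.145 and 0.125 in KO) overlapped between the groups, and Psmb8 itself was called higher (log2 fold change 0.55, adjusted p = 0.00162) whereas Psmb9 was not (0.43, adjusted p = 0.177). The choice of length changes the size of each ratio, but not whether the groups overlap. No test was made of these ratios.

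Of the structural beta genes, Psmb3, named after its values were seen, lay just short of the threshold, at 56.38 and 54.55 CPM in WT and at 68.18 and 70.46 CPM in KO (log2 fold change 0.32, adjusted p = 0.0503, SE 0.10). It was called under 5 other settings, and 55.8% of its 50-base stretches occur in annotated copies. Psmb4, the highest beta gene per length in WT, had a log2 fold change of -0.09 (adjusted p = 0.589, SE 0.09). The fold changes of Psmb1 and Psmb2 were 0.09 (SE 0.09) and 0.05 (SE 0.14), neither of them called.

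The tissue-specific core subunits had few counts. Psmb11, the catalytic subunit of cortical epithelial cells, had 46 and 51 counts in WT and 42 and 54 in KO, or 0.237 to 0.310 RPKM, with groups that overlapped (log2 fold change -0.03, adjusted p = 0.986, SE 0.65). Psma8, an alpha subunit of the testis that stands in for Psma7, had 0 and 17 counts in WT and 10 and 6 in KO and was too low to be tested. The 0 in WT replicate 1 allows up to 3 counts, or 0.0837 CPM, an allowance for counting error only. Neither a change nor its absence can be read from counts this low.

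**Figure D3:**
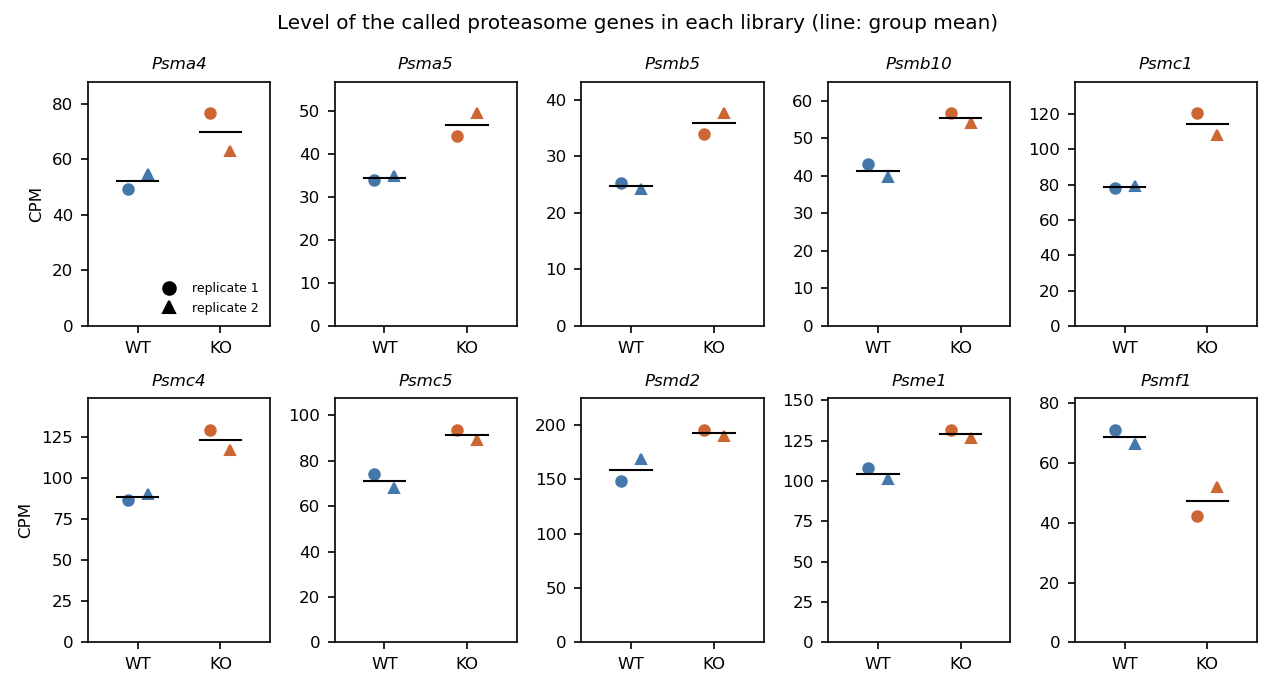
CPM (vertical axes, each from 0) of the 10 called proteasome genes in each library, with WT in blue, KO in orange, circles for replicate 1, triangles for replicate 2 and a line at each group mean. For 9 genes both KO libraries lie above both WT libraries, and for Psmf1 both lie below.

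The activators and the inhibitor were the only one of the groups of proteasome genes with calls in both directions. Psme1 was called higher and Psmf1 lower, each 16.7% of the group. Of genes at 10 CPM or more, 11.9% were called higher and 13.3% lower. The median log2 fold change of the 6 genes was 0.24. Psme1 (chromosome 14, 55578123 to 55581529, plus strand), one of the paired subunits of the interferon-inducible activator ring, was at 107.7 and 100.9 CPM in WT and at 131.6 and 126.7 CPM in KO. The groups did not overlap, the log2 fold change was 0.31 (adjusted p = 0.0265, SE 0.08), and without WT replicate 2 the adjusted p was 0.158. Its partner Psme2 was at 43.86 and 43.19 CPM in WT and at 48.90 and 53.92 CPM in KO. The KO libraries were again the higher ones, but Psme2 was not called (log2 fold change 0.24, adjusted p = 0.217, SE 0.12). Its reads are hard to assign, since 59.3% of its 50-base stretches recur, nearly all in the copy Psme2b, which had a log2 fold change of 0.24 (SE 0.44). A difference between the partners was not tested.

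The nuclear activators were not called. Psme3, which forms a nuclear activator ring of its own, was at 135.9 and 128.5 CPM in WT and at 161.3 and 151.1 CPM in KO (log2 fold change 0.24, adjusted p = 0.0678, SE 0.08). It was called with limma-voom (adjusted p = 0.0434) and without KO replicate 2 (adjusted p = 0.0342). Psme4, the single-chain activator linked to acetylated histones, was at 98.26 and 105.1 CPM in WT and at 116.3 and 119.9 CPM in KO (log2 fold change 0.22, adjusted p = 0.110, SE 0.08), and the adjusted p was 0.0481 with the length correction. In both genes the KO libraries lay above the WT libraries.

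Psmf1 (chromosome 2, 151715812 to 151744186, minus strand) fell. It encodes a protein first described as an inhibitor of the core in vitro, and later as an adaptor for proteasome transport. It was at 70.97 and 66.41 CPM in WT and at 42.37 and 52.05 CPM in KO, with no overlap and with the larger gap within the KO group. The log2 fold change was -0.54 (adjusted p = 0.0111, SE 0.12), and without KO replicate 1 it was -0.38, with an adjusted p just above the threshold of 0.05. Psmf1 overlaps no other gene's exons and shares no 50-base stretch with another transcript.

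The assembly chaperones, which help to build the particle and leave it, had no calls among 3 genes for the cap and 4 for the core. Of all tested genes 6.63% were called higher and 7.89% lower, so an absence of calls among so few genes does not set them apart. The chaperones of the 19S base gave log2 fold changes of 0.18 for Psmd5 (SE 0.16), -0.07 for Psmd9 (SE 0.11) and 0.33 for Psmd10 (SE 0.25). Psmd5 was at 33.88 and 37.90 CPM in WT and at 46.93 and 34.35 CPM in KO, Psmd9 at 63.55 and 56.25 and at 59.30 and 54.88, and Psmd10 at 11.99 and 8.24 and at 13.69 and 11.76. The groups overlapped for all 3 genes. Over all tested genes, both KO libraries lay above both WT libraries for 27.8% and below them for 28.1%. An opposite-strand lincRNA, Gm26745, covers 25.5% of the exonic length of Psmd9.

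The 20S chaperones Psmg1, Psmg2 and Psmg4, which guide ring formation, gave log2 fold changes of -0.06 (SE 0.19), 0.28 (SE 0.21) and -0.11 (SE 0.25). Psmg1 was at 17.85 and 22.73 CPM in WT and at 18.58 and 20.28 CPM in KO, Psmg2 at 12.21 and 14.76 and at 16.77 and 15.94, and Psmg4 at 10.35 and 8.54 and at 9.02 and 8.44. The groups overlapped for Psmg1 and Psmg4 and not for Psmg2, where both KO libraries were the higher ones, as for 27.8% of all tested genes. Psmg3, their low-level partner, had 65 and 169 counts in WT and 222 and 258 in KO, so that WT replicate 1 stood apart from the other libraries. Its log2 fold change of 1.03 was the largest of all members but had an SE of 0.43 (adjusted p = 0.140). Leaving out WT replicate 1 gave 0.51 (adjusted p = 0.531) and leaving out WT replicate 2 gave 1.85 (adjusted p = 0.00476), so the value rests on which WT library is kept. Of its 50-base stretches, 22.7% recur in Gm26938, which overlaps it on the same strand. Psmc3ip was at 8.14 and 6.74 CPM in WT and at 8.72 and 11.29 CPM in KO (log2 fold change 0.43, adjusted p = 0.345, SE 0.27).

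Levels per length differed widely between subunits, although the assembled core holds each constitutive subunit in equal number. Over the 14 constitutive core genes, the mean RPKM in WT ran from 12.4 (Psmb7) to 96.3 (Psma6), a 7.74-fold range, and in KO the range was 7.34-fold between the same genes. The deposited lengths equal the union of all annotated exons for 44 of the 48 genes and are 1.53 times the main transcript at the median. Dividing counts by the main transcript's length instead narrowed the range to 5.06-fold in WT, from Psmb5 to Psmb4, and 4.46-fold in KO, from Psma2 to Psmb6. Within the ATPases the mean RPKM in WT ran from 16.2 (Psmc2) to 59.5 (Psmc3), and within the other cap subunits from 7.95 (Psmd1) to 55.1 (Psmd8). For the chaperones it ran from 4.96 (Psmd5) to 8.26 (Psmd9) for the cap and from 1.11 (Psmg3) to 17.0 (Psmg4) for the core, ranges that overlap the lower end of the subunits. With 2 libraries a group, the order of neighbouring genes was not tested.

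**Figure D4:**
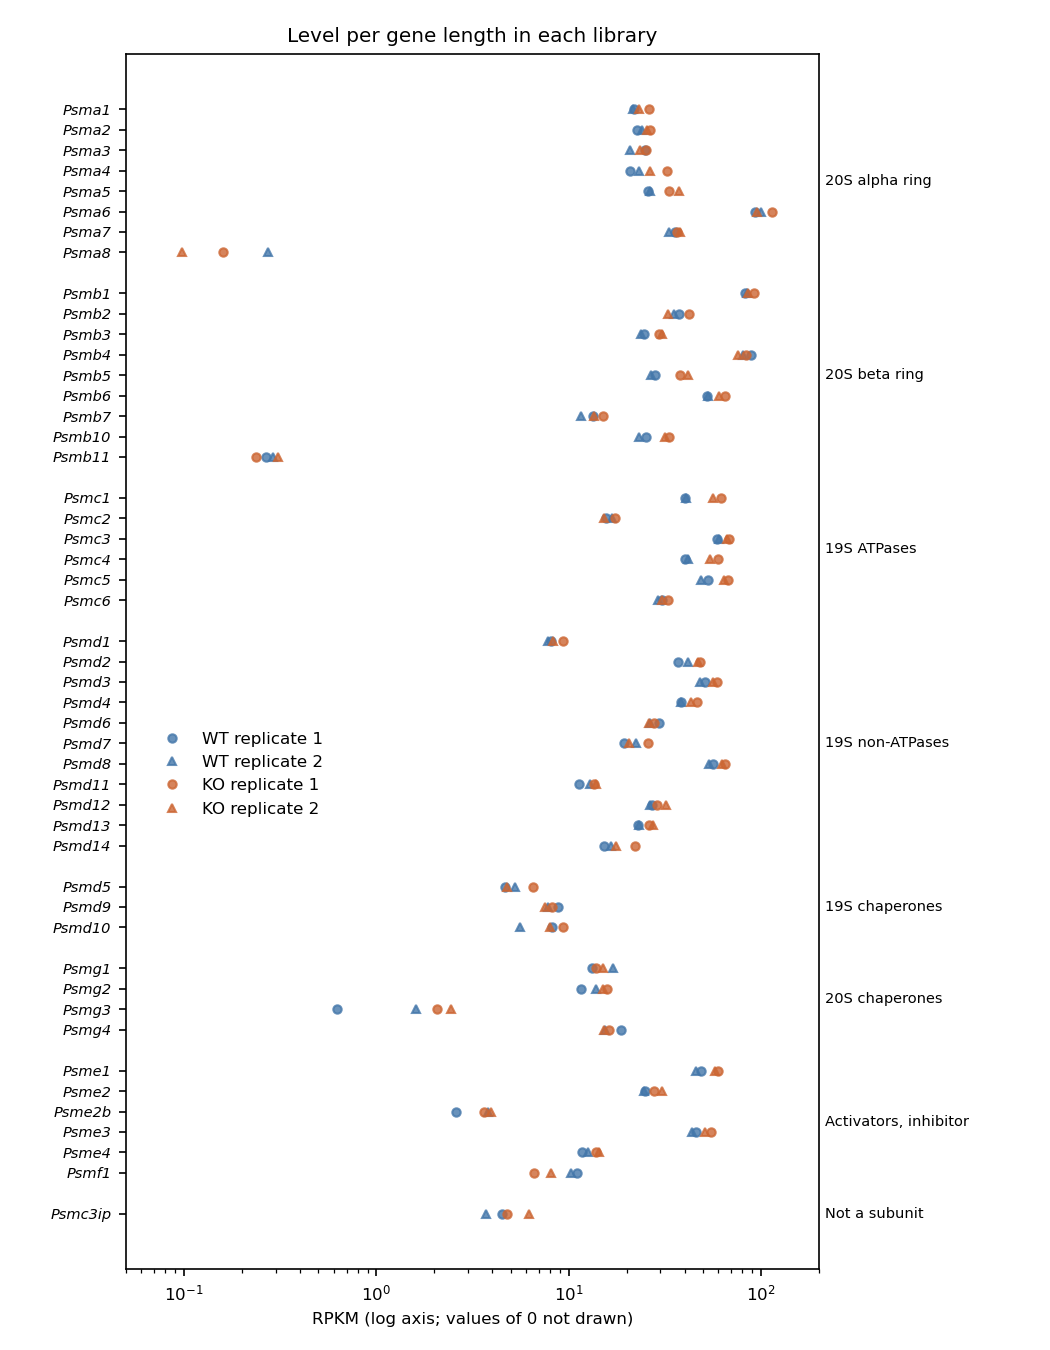
RPKM (log horizontal axis) of each of the 48 proteasome genes in each library, grouped by place in the complex, with WT in blue, KO in orange, circles for replicate 1 and triangles for replicate 2. The constitutive core genes have WT means from 12.4 to 96.3, and Psma8 and Psmb11 lie below 1 in every library.

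The related genes of the pathway, outside the symbol rule, did not share one direction. Of 35 tested, 6 were called higher (17.1%) and 2 lower (5.71%), beside 6.63% and 7.89% of all tested genes and 11.9% and 13.3% of those at 10 CPM or more, where all 35 lie. Their median log2 fold change was 0.10. Among partners of the particle, Adrm1, a ubiquitin receptor of the cap, was called higher (CPM of 102.5 and 90.76 for WT, 128.9 and 127.2 for KO; log2 fold change 0.41, adjusted p = 0.00923, SE 0.09), but the adjusted p was 0.0631 without WT replicate 2 and 77.99% of its 50-base stretches recur in Gm9774. Zfand2a, an arsenite-inducible zinc finger protein that binds the cap, fell by 1.21 on the log2 scale (CPM of 220.4 and 245.4 for WT, 102.2 and 98.54 for KO; adjusted p = 2.93e-06, SE 0.08). Pomp, the chaperone of beta ring assembly, was at 62.91 and 63.86 CPM in WT and at 76.85 and 72.82 CPM in KO and was not called (log2 fold change 0.24, adjusted p = 0.125, SE 0.10).

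Among 8 genes for transcription factors of proteasome genes and for the enzymes that process Nfe2l1, 2 were called, both higher. Among all tested genes at 10 CPM or more, 11.9% were called higher and 13.3% lower. Nfe2l1, the factor that restores proteasome gene expression when the proteasome is inhibited, was at 60.59 and 67.40 CPM in WT and at 79.36 and 84.34 CPM in KO. Its groups did not overlap, and the log2 fold change was 0.36 (adjusted p = 0.0334, SE 0.10), with adjusted p = 0.210 without WT replicate 1 and 0.0837 without KO replicate 2. Nfya, a subunit of NF-Y, was at 98.54 and 91.50 CPM in WT and at 152.2 and 139.0 CPM in KO (log2 fold change 0.62, adjusted p = 0.000591, SE 0.09). For 3 of the 8 genes, Nfe2l2, Nfyc and Stat3, named after their values were seen, both KO libraries lay below both WT libraries. The same held for 28.1% of all tested genes, and none of the 3 was called. The opposite held for 4 of the 8, beside 27.8% of all tested genes. Nfe2l2, the factor of the oxidative stress response, was at 38.62 and 34.56 CPM in WT and at 29.51 and 24.13 CPM in KO (log2 fold change -0.45, adjusted p = 0.0750, SE 0.15), and it was called under 4 other settings.

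Of the 17 tested genes for ubiquitin, its activation and its delivery, 3 were called higher (17.6%) and 1 lower (5.88%), beside the same 11.9% and 13.3%. The ubiquitin-activating enzymes went opposite ways. Uba1, the main enzyme, was at 424.7 and 430.2 CPM in WT and at 531.3 and 530.5 CPM in KO (log2 fold change 0.31, adjusted p = 0.00726, SE 0.07). Uba6, its homologue, fell from 65.00 and 59.67 CPM in WT to 32.62 and 31.14 CPM in KO (log2 fold change -0.97, adjusted p = 0.000269, SE 0.12). Vcp, the unfoldase upstream of the proteasome, rose by 0.30 on the log2 scale (adjusted p = 0.0154, SE 0.07, and 0.0735 without WT replicate 1). Rps27a, which encodes ubiquitin fused to a ribosomal protein, rose by 0.24 (adjusted p = 0.0371, SE 0.07), a call lost without either WT library (adjusted p = 0.0980 and 0.227) and without KO replicate 1 (0.0571), with the length correction (0.0629) and with the replicate block (0.0589).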

How the data were processed

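RNA from sorted cells was sequenced on an Illumina platform, with 2 libraries per genotype. Per the submitters' processing notes, FastQC 0.11.5, cutadapt 1.17, STAR 2.6.0a, HTSeq 0.6.1 and DESeq2 1.24.0 were used with GRCm38 (mm10); their settings, and whether counting used strand, are not stated in these notes or the labels. The authors deposited whole-number counts per gene for each library and a table of RPKM values with gene lengths. Library totals were 35862730 and 36515358 counts in WT and 37033180 and 36389555 in KO. Count intervals and floors cover counting error only.

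Counts were tested with edgeR 4.0.16 (R 4.3.3): TMM factors, its default low-count filter, a robust quasi-likelihood fit with genotype as the only term, two-sided, with Benjamini-Hochberg adjustment over all 16588 tested genes and a threshold of 0.05. The SE of a log2 fold change was its size divided by the square root of the F statistic. CPM scale the counts to the library's total; CPM and RPKM are not TMM-scaled. Gene positions, lengths and 50-base stretches shared with other transcripts came from GENCODE M21, whose exon unions equal the deposited lengths of 44 of the 48 members. Alternatives used limma 3.58.1 (voom, or log2 RPKM plus 0.5 or 0.1), DESeq2 1.42.0, other scalings, other filters, a length correction, a replicate block, and each library left out in turn. The fits were tested on simulated data. Members, gene lists and tests were chosen with earlier results of these data known. Values in each library are given for called members, catalytic subunits, activators, the inhibitor, chaperones, Psmb11 and Psma8.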

Additional observations from a re-analysis of the deposited data

How the results depend on the processing

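Across the 9 count-based alternatives, 9 to 13 proteasome genes were called higher and 1 lower, beside 9 and 1 in the reported fit. Over all genes these alternatives called 2391 to 2976, beside 2408 in the reported fit. DESeq2 called 10 and 1 members (2682 genes in all) and limma-voom 13 and 1 (2964 in all). The median log2 fold change of the members was 0.20 to 0.22 in these fits. Limma on log2 RPKM plus 0.5 called 0 of all genes (4063 at an unadjusted p under 0.05), 0 members higher (18 unadjusted), 0 lower (1) and, of the related genes, 0 higher (8) and 0 lower (4). With 0.1 added in place of 0.5 it called 82 genes in all, 0 members higher (18) or 0 lower (1), and 0 related genes higher (7) and 1 lower. Restricted to a mean RPKM of at least 1 it called 1200 genes, 6 members higher, 0 lower (1 unadjusted) and 2 related genes higher. Leaving out 1 library at a time gave 5 to 10 members higher, 0 to 1 lower, 3 to 5 related genes higher, 2 to 4 related genes lower and 1980 to 2697 calls in all.

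No call reversed. Uncalled genes that changed sign as libraries were left out had log2 fold changes between -0.24 and 0.17 for Psmb11, -0.22 and 0.13 for Psmg1, -0.24 and 0.039 for Psmg4, -0.044 and 0.39 for Psmd5, -0.15 and 0.030 for Psmd9, -0.076 and 0.097 for Psmc2, -0.032 and 0.23 for Psma3, -0.12 and 0.21 for Psmb2, and -0.13 and 0.031 for Psmd6. With a filter of 1 CPM on average Psmc2 was at -0.00039, and with the length correction Psmb2 was at -0.0013. The cause was not tested.

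With the replicate number as a block, 11 members were called higher and 1 lower, 2809 genes in all, and Psmb3 (adjusted p = 0.0453) and Psmg3 (0.0186) were added, while the related gene Rps27a was lost (0.0589). Same-numbered libraries deviated with a correlation of -0.05 over 12818 genes, and with 2 pairs the numbers are not shown to pair the libraries. With 2 libraries a group, SEs of 0.07 to 0.65 on the log2 scale limit what can be called, and a member not called is not shown to be unchanged.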
